A study of Rattus norvegicus with 3 samples.

Results

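A2m encodes alpha-2-macroglobulin, a large secreted inhibitor of proteinases, and is 1 of the 26404 gene identifiers in the count files of this rat liver series. It is the row ENSRNOG00000028896, chosen by its measured levels in these same libraries (its counts in healthy, saline and etanercept), so its values are given as a description and without a test. The name A2m came with that choice. The count files hold identifiers without symbols, and 0 of the 26404 matched the RefSeq gene table, so the name was not checked against the data. For the same reason the identity of the tissue was not checked by liver marker genes, and other genes are given by identifier only.

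Alpha-2-macroglobulin traps proteinases. A proteinase cuts a stretch of the protein known as the bait region, the molecule closes around the enzyme, and the complex is removed from plasma through the receptor LRP1. In the adult rat it is a classic acute-phase protein: hepatocytes make little of it in health and much more during inflammation, when interleukin-6 acts through STAT3 together with glucocorticoids. TNF is an early signal after loss of liver tissue and can induce interleukin-6 in the macrophages of the liver, the Kupffer cells.

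The series holds 3 libraries, 1 per group, each from pooled liver RNA of 3 adult rats. The healthy group was untreated. The saline group had received vehicle, labelled as 1 ml, and its livers were collected 32 hours after partial hepatectomy. The etanercept group had received the drug at 9 mg/kg in 1 ml, between 16 and 18 hours ahead of surgery, with collection at the same 32 hours. Etanercept joins the ligand-binding part of a TNF receptor to an antibody Fc region and so captures TNF in the circulation. There was no group with hepatectomy alone or with a sham operation, and the strain is not given in the sources used here. Pooling leaves no measure of the variation between rats, so no p-value can be given, and all intervals are for counting error alone.

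Gene reads per library ranged from 2645152 in saline to 5993834 in healthy, with 3639886 in etanercept. Over all genes together, 20.9% of the uniquely aligned reads were assigned to a gene in the etanercept library, compared with 77.5% in saline and 79.4% in healthy. Levels below are counts per 1000000 reads (CPM) of an effective library size set by the trimmed mean of M-values (TMM), a scaling that centres the bulk of genes on no change. A single read is worth 0.186 CPM in healthy, 0.309 CPM in saline and 0.301 CPM in etanercept.

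A2m was nearly unread in healthy liver and abundant in both hepatectomy libraries. The healthy library held 2 reads of A2m, a level of 0.372 CPM with a 95% exact Poisson interval of 0.0451 to 1.35. The saline library held 781 reads, a level of 241 CPM (225 to 259). The etanercept library held 1309 reads, a level of 394 CPM (373 to 416). The healthy library is thus the low one by a wide margin, although it is the deepest in gene reads, and the intervals of the 3 libraries do not overlap on this scale. In bulk liver RNA a change in the number of expressing cells and a change in RNA per cell cannot be told apart.

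**Figure D1:**
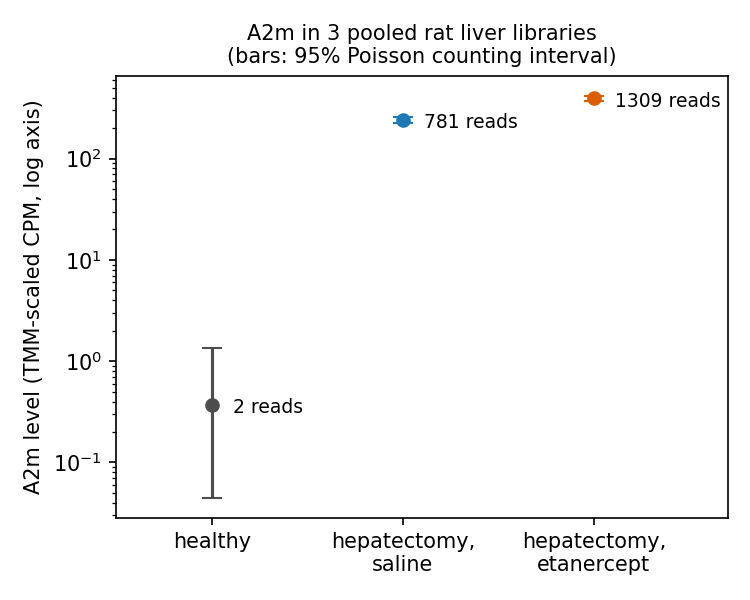
A2m level in each library as TMM-scaled CPM on a log axis, 1 point per pooled library, with bars for the 95% Poisson counting interval and the number of A2m reads beside each point. The healthy point is at 0.372 CPM, and the saline and etanercept points are at 241 and 394 CPM.

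As a share of gene reads, A2m took 1 in every 2996917 in healthy liver. It took 0.0295% in the saline library, between exact (Clopper-Pearson) 95% bounds of 0.0275 and 0.0317. With etanercept the share was 0.0360%, between 0.0340 and 0.0380. These shares use no scaling factor, and both hepatectomy libraries remain far above healthy on them. The gap between saline and etanercept is narrower here than in CPM, and their intervals still do not overlap.

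The rank of A2m by read count moved from the tail of the expressed genes to near the top. In healthy liver it stood at rank 13124 of 15966 genes with a read, level with 903 other genes that also had 2 reads. In the saline library it stood at rank 400 of 14631, above 97.3% of detected genes. In the etanercept library it stood at rank 303 of 13036, above 97.7% of them. With counts at the bounds of its Poisson interval, its rank would run from 357 to 439 in saline and from 287 to 324 in etanercept. Ranks are by reads and not per length, so they favour long transcripts and serve to follow A2m from library to library, not to weigh it against another gene.

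**Figure D2:**
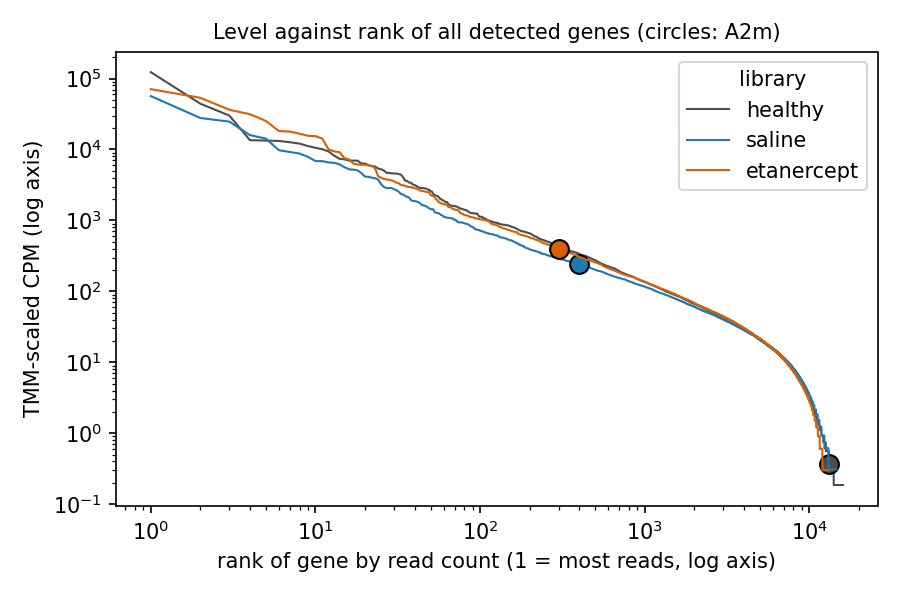
TMM-scaled CPM of each detected gene against its rank by read count, both on log axes, with 1 line per library and a circle for A2m in the colour of its library. The A2m circle lies at rank 13124 in healthy, 400 in saline and 303 in etanercept, while the 3 lines run close together over most of their length.

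The saline library was set against the healthy one to describe the liver after hepatectomy. At the healthy level, the saline library would have held 1.20 A2m reads, and it held 781. The ratio of saline to healthy was 519 with a pseudocount of 0.5 reads, and its counting interval, 179 to 5362, is wide because the healthy value rests on 2 reads. On the log2 scale the ratio was 9.02, while the median of the 9755 genes tested was -0.07 and their lower and upper quartiles were -0.51 and 0.39. A gene was tested when its higher library reached 5 CPM and called when it differed at least 2-fold, and 9.32% of tested genes were called higher in saline. A2m is among them and had the highest ratio of all 9755. Since the gene was chosen for this contrast, that position is how it was found and supports nothing further.

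Genes that began at the same healthy count mostly stayed low. Of the 903 other genes with 2 healthy reads, 458 had no read in the saline library, 862 had at most 10 reads and 31 reached 5 CPM. The highest of the 903 had 214 reads in saline, or 66.1 CPM, which is below A2m at 241 CPM. In the etanercept library 598 of them had no read, 54 reached 5 CPM and the highest had 370 reads, or 111 CPM. A2m was chosen by these same counts, so its place above the 903 is a description only.

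The genes read about as often as A2m in saline were well above it in healthy liver. The saline library held 230 other genes within 20% of the A2m level, and the lowest of these in healthy liver had 321 reads there, or 59.8 CPM. Their median healthy level was 279 CPM, beside 0.372 CPM for A2m. All 399 genes with more saline reads than A2m had at least 234 reads in healthy liver. The etanercept library differed in this: of the 302 genes with more reads than A2m there, the lowest had 3 healthy reads and 13 had fewer than 100. A2m was chosen by these same counts and had the highest ratio of saline to healthy. Higher healthy levels among genes read as often in saline therefore follow from that choice and are a description only.

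A group of genes shares the start from near 0. Among the 909 genes called higher in saline than in healthy liver, 108 had at most 3 healthy reads, the limit that a count of 0 allows. A2m was the most read of these 108 in the saline library. It supplied 781 of their 6705 reads, or 11.6%, with an exact interval of 10.9% to 12.4%. The median of the 108 was 10.8 CPM, and the other 107 ranged from 5.25 to 92.1 CPM. The 5 CPM filter sets the lower end of that range, and any gene with so few healthy reads that passes it is called. The lead of A2m among the 108 rests on the values it was chosen by and is a description only. It is by reads and not per length, which favours long transcripts. Of the 108, which entered by their saline level, 91 reached 5 CPM with etanercept. Among the 203 genes called in the same way from the etanercept side, these same 91 reached 5 CPM in saline. A gene with at most 3 healthy reads and at least 5 CPM in both hepatectomy libraries is called from either side. This is therefore a single count and no measure of agreement between the libraries.

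**Figure D3:**
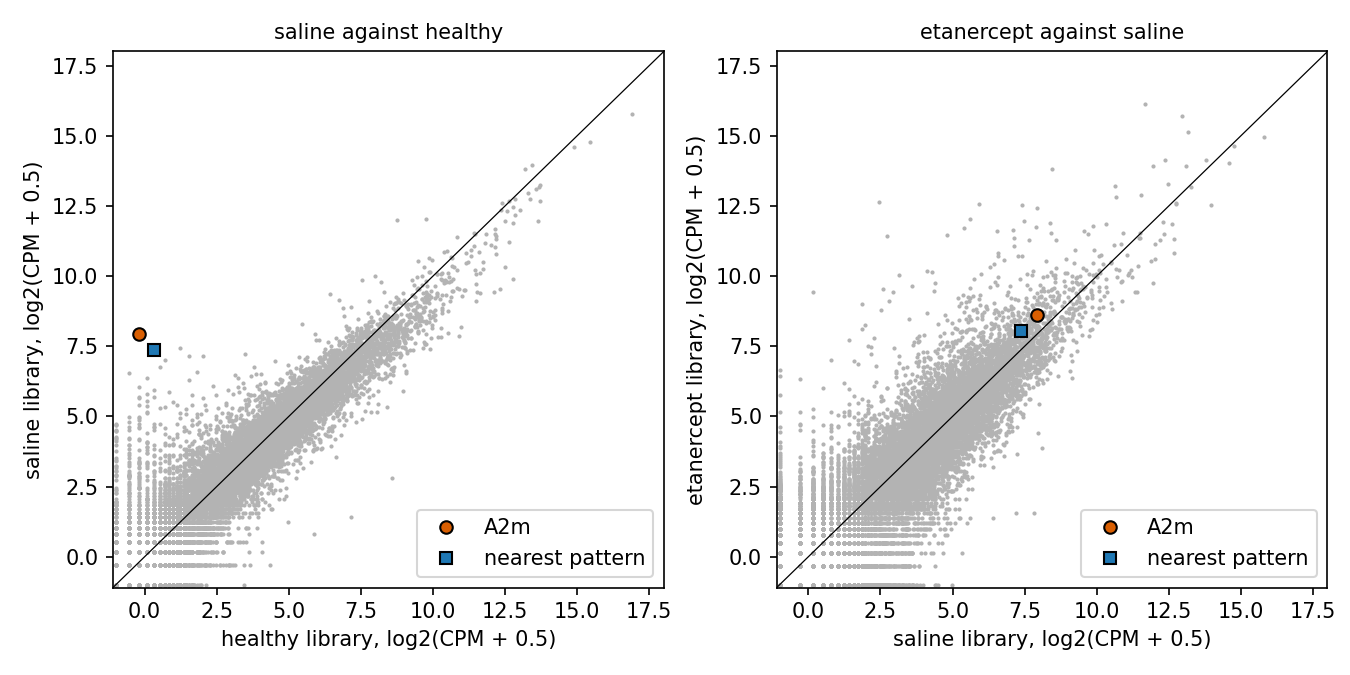
Levels of all genes with a read as log2(CPM + 0.5), saline against healthy on the left and etanercept against saline on the right, with a line at equal levels, a circle for A2m and a square for the gene nearest to it in pattern. On the left A2m stands apart from the cloud of genes at a log2 ratio of 9.02, and on the right it lies inside the cloud at 0.71.

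The etanercept library was set against the saline one to describe livers of rats pretreated with the TNF-binding drug, 32 hours after the operation. A2m was read at a high level with etanercept as well. With TMM the level was 1.63 times that in saline (counting interval 1.49 to 1.79), which did not reach the 2-fold call. On the log2 scale the ratio was 0.71, beside a median of 0.00 over the 9991 genes tested and an interquartile range of -0.76 to 0.73. In this comparison 18.3% of tested genes were called higher and 19.2% lower. A2m exceeded 74.4% of the tested genes, which places it just below the upper quartile of all genes, although counting error is smaller than the difference.

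The direction of that difference depended on the denominator. The ratio was 1.66 with DESeq2 size factors, 1.56 with upper-quartile factors and 1.22 with total gene reads. Per 1000000 uniquely aligned reads, in or out of genes, A2m stood at 229 in saline (213 to 245) and at 75.0 in etanercept (71.0 to 79.2). On that scale etanercept was the lower library, at a ratio of 0.328. Reads in no gene were 77.4% of the uniquely aligned ones with etanercept and 21.7% with saline, and the part of this library make-up in the A2m ratio was not tested. Against healthy, at 0.265 per 1000000 uniquely aligned reads, both hepatectomy libraries were higher on this scale too.

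**Figure D4:**
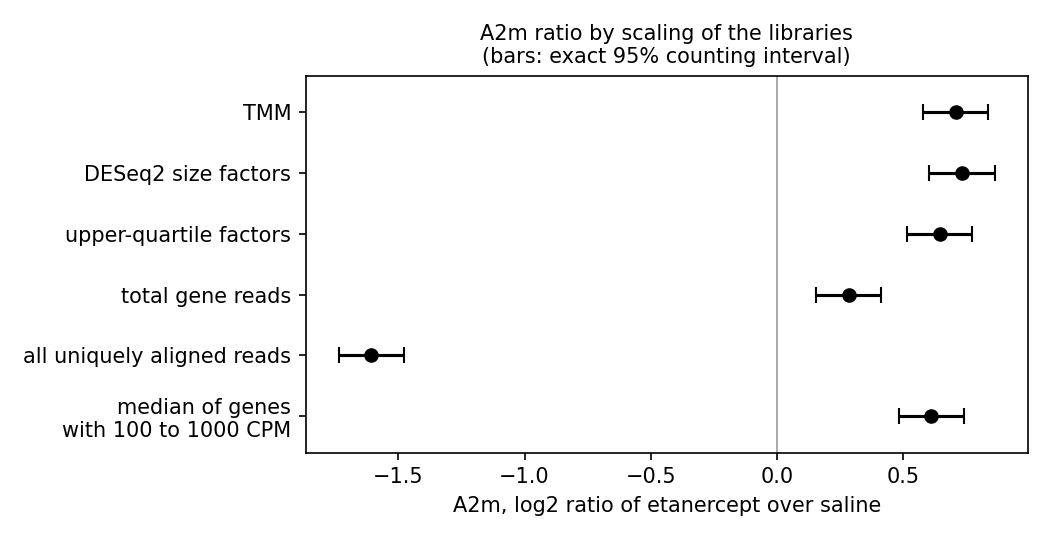
Log2 ratio of A2m in etanercept over saline for 6 ways of scaling the libraries, with bars for the exact 95% counting interval and a line at no difference. The ratio is 0.71 with TMM and 0.28 with total gene reads, and it falls to -1.61 when all uniquely aligned reads are the denominator.

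Genes of similar abundance in saline were set beside A2m within the same libraries. Of the 230 genes within 20% of the A2m level in saline, 194 had a lower ratio of etanercept to saline than A2m and 36 a higher one. Their median log2 ratio was -0.28, with quartiles at -0.86 and 0.44, and 25 of them passed the 2-fold call upward and 48 downward. Over all tested genes in this comparison, 18.3% were called higher and 19.2% lower. A2m, at a log2 ratio of 0.71, lay above the upper quartile of these genes matched by saline level. Matching by saline level favours low ratios of etanercept to saline, and A2m was chosen by these same counts. Among 140 genes matched by etanercept level instead, 65 had a higher ratio than A2m. The position of A2m is therefore a description only. A change of scaling moves all of these ratios by the same amount and leaves the order among them as it is, up to the pseudocount.

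Against healthy liver, A2m in the etanercept library was 847 times as high (counting interval 293 to 8752). Its log2 ratio was 9.73, beside a median of -0.04 over 10069 tested genes. This was rank 4 among them, and 21.9% of tested genes were called higher. With all uniquely aligned reads as the denominator the ratio was 227. The comparison shares its healthy library, and thus the same 2 A2m reads, with that of saline against healthy, so the ratios of 519 and 847 are not independent of each other. The etanercept library had 203 called genes with at most 3 healthy reads, and A2m supplied 8.05% of their 16252 reads (7.64% to 8.48%), at position 2 by level. Its place among them is by reads and not per length, rests on the values it was chosen by and is a description only.

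Among the 140 other genes within 20% of the A2m level in etanercept, the lowest healthy count was 30 reads and the median 1323 reads. Here 65 of 140 had a higher ratio of etanercept to saline than A2m. Selecting genes by their etanercept level favours those high in that library, while selecting by saline level favours the reverse, so these counts and those for the saline level are given side by side and not as a test.

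The genes nearest to A2m in both the course and the size of their differences were sought over the 3 libraries. Likeness was taken as the distance between profiles of log2(CPM + 0.5), each centred on its own mean over the 3 libraries, among the 10346 other genes that reached 5 CPM in some library. The median distance from A2m was 7.01, 5 genes lay within a distance of 2, and the nearest, ENSRNOG00000008450, lay at 0.88. Profiles were not scaled, so a gene with the same course but smaller differences lies far from A2m. With 3 libraries this is a description and carries no measure of chance.

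ENSRNOG00000008450 had 4 reads in healthy liver, 535 in saline and 879 in etanercept. Its levels were 0.745, 165 and 265 CPM, so it too was low in healthy and high in both hepatectomy libraries. Saline exceeded healthy by a ratio of 198 (counting interval 86.2 to 818). With TMM, etanercept exceeded saline by a ratio of 1.60 (1.44 to 1.79), against 1.63 for A2m. With all uniquely aligned reads as the denominator, every log2 ratio of etanercept to saline shifts by -2.32. ENSRNOG00000008450 was picked for the closeness of its values to those of A2m, so their agreement is set by the selection. The other 4 of the 5 nearest genes had 1 to 4 healthy reads and ratios of saline to healthy from 60.7 to 330. Their ratios of etanercept to saline ran from 0.540 to 3.01, on both sides of A2m.

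In the RefSeq annotation of the rat assembly GRCr8, A2m lies on chromosome 4. Its next protein-coding neighbours on one side are Mug1l1, Mug1 and Mug2, members of the murinoglobulin branch of the same protein family, and on the other side Iqsec3. Murinoglobulins are related plasma proteinase inhibitors. The genome build behind the counts is not given in the sources used here, so no coordinates are printed. Reads aligned to several places, and reads overlapping more than 1 gene, were tallied apart from gene counts, so stretches shared by A2m and a relative can be undercounted, and how many A2m reads this concerns was not tested.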

How the data were processed

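Each library has 1 deposited file of whole-number read counts by Ensembl gene, not normalized, with 5 summary rows that name no gene; these rows stayed out of library sizes. Per the submitters' processing notes, TopHat2 2.0.13 and HTSeq 0.6.1 were used; build, annotation and strandedness of the counting were not stated in the labels, so reads antisense to A2m may be included. Per the labels' protocols, ribosomal RNA was depleted from total RNA. Reads in no gene were 19.9%, 21.7% and 77.4% of uniquely aligned reads in healthy, saline and etanercept; reads in more than 1 gene were 0.729%, 0.871% and 1.69%.

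Counts were scaled by TMM (edgeR 4.0.16, R 4.3.3; factors 0.896, 1.22 and 0.912). Ratios used a pseudocount of 0.5 reads, a minimum of 5 CPM in the higher library and a 2-fold call. Intervals are exact Poisson or Clopper-Pearson at 95% (scipy 1.17.1) and cover counting error only. Calls and intervals were tested on simulated data with counting error only, which cannot speak for variation between rats or libraries. Alternatives were DESeq2 1.42.0 size factors, upper-quartile factors, total gene reads, all uniquely aligned reads, other pseudocounts and filters. Named genes were A2m and the 1 gene nearest in pattern, since identifiers could not be paired with symbols and the listed acute-phase, family and marker genes were therefore not scored. A2m and those lists were chosen with earlier results of these data known. Genes matched to A2m by level or by healthy count were compared after its values were seen.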

Additional observations from a re-analysis of the deposited data

Results flagged for a closer look

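As a share of uniquely aligned reads, those not assigned to a gene were higher in both hepatectomy libraries than in healthy liver. These unassigned reads enter 1 of the alternative denominators used for A2m, all uniquely aligned reads, and not its TMM-scaled levels. Reads aligned to several places are in none of these shares. Of all uniquely aligned reads, those in no gene were 77.4% with etanercept and 21.7% with saline, beside 19.9% in healthy liver. Those in more than 1 gene were 1.69% with etanercept and 0.871% with saline, beside 0.729%. These differences between single libraries were not tested.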

How the results depend on the processing

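A2m was higher in both hepatectomy libraries than in healthy liver under each scaling and pseudocount tried, with log2 ratios of 8.76 to 9.47 in saline and 7.83 to 10.05 in etanercept. The 7.83 came from all uniquely aligned reads. Etanercept over saline was 0.28 with total gene reads and reversed to -1.61 with all uniquely aligned reads, against 0.71 with TMM; by construction these scalings shift all genes, by -0.42 and -2.32. The saline level was 295 CPM with total gene reads and 263 CPM with the median of genes at 100 to 1000 CPM, a scaling chosen after seeing the data. The etanercept level was 359.6 CPM with total gene reads and 75.0 with all uniquely aligned reads.

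For saline against healthy, etanercept against saline and etanercept against healthy, 1851, 3742 and 4627 genes were called. Without the filter on low levels the counts were 5127, 8078 and 8346, and with a minimum of 20 CPM they were 950, 2085 and 2711. All uniquely aligned reads gave 8425 in the second comparison and 7180 in the third. The share of higher calls was 49.1%, 48.8% and 47.8% with TMM, 84.6%, 25.4% and 48.9% with total gene reads, and 83.0%, 1.42% and 3.69% with all uniquely aligned reads; in the first comparison it was 74.1% with the median of genes at 100 to 1000 CPM. Of the 5 genes nearest in pattern, 3 were the same with a pseudocount of 1 CPM in place of 0.5 CPM. All 5 lay at 0.186 to 0.745 CPM in healthy liver, near these pseudocounts, so the list depends on that setting. No paired analysis was possible because each group has 1 library. The healthy value of A2m rests on 2 reads, and no library has a replicate.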
